A study of Mus musculus with 14 samples.

Results

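Ccr2, Plac8, S100a4, S100a6, Treml4, Vcan, Chil3, Fn1 and F13a1 are transcripts of blood monocytes that are known to fall as these cells mature into macrophages of the gut wall. They were taken by gene symbol, and all 9 were found once each among the 55487 genes of the table. Cells sorted from mouse colon gave 14 RNA-seq libraries. Control mice, called wt, were Tsc2fl/fl Lyz2+/+, so both copies of Tsc2 were floxed and no recombinase was present. The other mice, called cre, were Tsc2fl/fl Lyz2cre/+, with Cre recombinase in 1 copy of the Lyz2 locus. Lamina propria macrophages gave 3 wt and 3 cre libraries, and CD44+ EpCAM+ epithelial cells gave 4 wt and 4 cre libraries, which serve here as the reference. Tsc2 encodes tuberin, a brake on the growth-promoting kinase complex mTORC1. The Lyz2 promoter is active in monocytes, macrophages and neutrophils, and mice with the recombinase but unfloxed Tsc2 were not among the groups. Ages were not in the labels.

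Gut macrophages are replenished throughout life by blood monocytes with high surface Ly6C, which enter the tissue through the chemokine receptor CCR2. Within the tissue they lose Ly6C and CCR2 and gain MHC class II, CX3CR1 and the capacity to make IL-10, a sequence often called the monocyte waterfall. The sort took CD64+ MHCII+ CD11b+ cells and left out Ly6C+, Ly6G+, SiglecF+, CD24+ and CD103+ cells, so the early, Ly6C-bearing steps of that sequence lay outside the gate.

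The libraries held 7269103 to 9364551 counts each. Levels are given as CPM, the count relative to library size after trimmed-mean (TMM) scaling over the 14 libraries. The 3 cre macrophage libraries came from males, and the wt ones from 1 male (wt 6) and 2 females (wt 2 and wt 4). Among epithelial libraries, wt 2, wt 4 and cre 5 came from females, and wt 6, wt 7, cre 8, cre 9 and cre 10 from males. Csf1r, the receptor for the macrophage growth factor, stood at 1474 to 2230 CPM in macrophage and 2.51 to 15.3 CPM in epithelial libraries. Epcam stood at 3.48 to 15.3 CPM in macrophages and 354 to 613 CPM in epithelial cells. Tsc2 itself did not pass the test in macrophages (log2 change -0.14, SE 0.23, edgeR adjusted p = 0.860). Its count covers exons outside any floxed segment and is a weak check of the deletion. Ly6c1 and Ly6c2, 2 genes of the antigen that the gate excluded, were detected in every macrophage library, at 59.2 to 213 CPM and 45.3 to 89.4 CPM.

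In macrophages every member had a negative log2 change in cre against wt, and 1 of the 9, Plac8, passed the test. The median change of the 9 was -0.55, against 0.0038 over the 14087 genes tested, of which 49.5% had a negative change. Of all genes tested 0.944% passed, and 0.213% passed as lower in cre (edgeR quasi-likelihood test, Benjamini-Hochberg adjusted p under 0.05). For 4 members, Plac8, Ccr2, Treml4 and Fn1, all 3 cre libraries lay below all 3 wt libraries. Over all genes tested 10.1% were separated in that direction. The members were chosen with earlier results of these data known, so these counts describe the 9 genes and carry no test. In bulk RNA, fewer cells of a kind and less RNA per cell cannot be told apart.

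**Figure D1:**
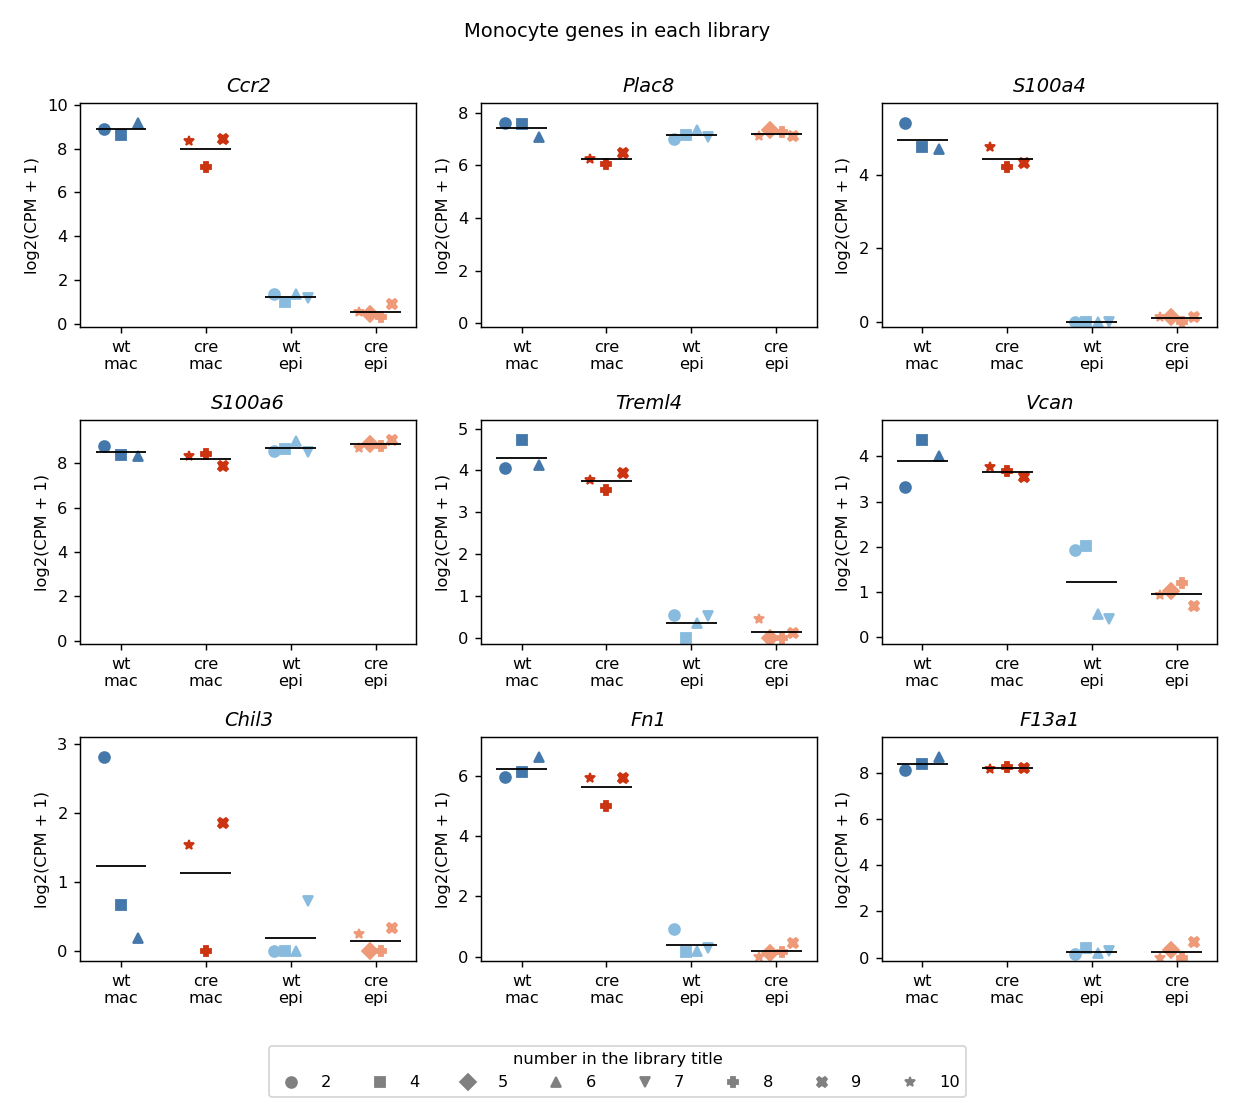
Level of each of the 9 monocyte genes in the 14 libraries, as log2(CPM + 1), for wt and cre macrophages (mac, 3 libraries each) and wt and cre epithelial cells (epi, 4 libraries each). Points are libraries, with symbols for the number in the library title, and lines are group means. S100a6 overlaps between macrophages and epithelium, and Plac8 does so in wt macrophages but lies below all epithelial libraries in cre macrophages. Ccr2, S100a4, Treml4, Fn1 and F13a1 are near 0 in epithelium.

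Plac8 encodes a small cysteine-rich protein that is abundant in monocytes and in several epithelia. It stood at 194, 188 and 134 CPM in wt macrophages 2, 4 and 6, and at 73.7, 65.5 and 87.7 CPM in cre macrophages 10, 8 and 9. The 2 highest values were those of the wt females, and the wt male lay between them and the 3 cre males. Plac8 fell 2.25-fold (log2 change -1.17, SE 0.19, edgeR adjusted p = 0.0301). Against the only male control, in males alone, the log2 change was -0.82 (adjusted p = 0.404), and with sex in the model it was -0.82 (adjusted p = 0.429). With the ribosomal RNA share of each library in the model it was -0.97 (adjusted p = 0.426). Leaving out any 1 library moved it between -1.31 and -1.07. The call was lost without cre 10 (adjusted p = 0.193), cre 8 (0.118), cre 9 (0.0542), wt 2 (0.0850) or wt 4 (0.134), and kept without wt 6 (0.0321).

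Ccr2 encodes the receptor that brings monocytes into tissue. It stood at 472, 393 and 573 CPM in wt macrophages 2, 4 and 6, and at 330.0, 141 and 351 CPM in cre macrophages 10, 8 and 9. The groups did not overlap, and cre 8 lay far below the other two cre libraries. Its change of -0.79 on the log2 scale (SE 0.32, edgeR adjusted p = 0.348) did not pass. Without cre 8 it was -0.48, and with the ribosomal RNA share in the model -0.34. Library cre 8 is also the lowest of the 6 in Plac8, S100a4, Treml4, Chil3 and Fn1. The same holds for the summed fibroblast and smooth muscle markers and the endothelial markers described further on. Ribosomal RNA took 33.6% of its counts, 31.4% in cre 10 and 23.5% in cre 9, against 23.2% to 24.9% in wt macrophages. Mitochondrial genes took 9.83% of the counts of cre 8 and 4.51% to 6.45% in the other five libraries. The part of these shares in the result was not tested beyond the fit with the ribosomal share.

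Treml4 encodes a TREM-like receptor known from patrolling monocytes and some dendritic cells. It stood at 15.7, 25.5 and 16.5 CPM in wt macrophages 2, 4 and 6, and at 12.6, 10.6 and 14.3 CPM in cre macrophages 10, 8 and 9. The groups were apart by a narrow margin, between wt 2 and cre 9, and wt 4 lay well above the other libraries. The log2 change was -0.61 (SE 0.27, adjusted p = 0.401 by edgeR) and -0.34 without wt 4.

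Sequences upstream of the transcript start are shown for the 3 of the 4 separated genes that the RefSeq promoter table (GRCm38.p6) holds, since these are the members whose libraries were apart by genotype. Each is the 250 bases before the RefSeq start, 5′ to 3′ on the gene's strand. The windows lie at chr5:100572206-100572455 (minus strand) for Plac8, chr9:124101933-124102182 (plus strand) for Ccr2 and chr17:48264045-48264294 (plus strand) for Treml4. In the annotation of the counts Ccr2 begins at 124101950 and Plac8 at 100572245. Most of the Ccr2 window and the 3′ part of the Plac8 window thus lie inside the gene as counted. Capitals mark GAGGAA on either strand, the core of sites for PU.1, a transcription factor of the myeloid lineage.
Plac8: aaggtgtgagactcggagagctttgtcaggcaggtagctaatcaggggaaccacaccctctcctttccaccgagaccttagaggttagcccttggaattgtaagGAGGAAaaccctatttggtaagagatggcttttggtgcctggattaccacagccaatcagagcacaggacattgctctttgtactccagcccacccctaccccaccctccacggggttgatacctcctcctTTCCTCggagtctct
Ccr2: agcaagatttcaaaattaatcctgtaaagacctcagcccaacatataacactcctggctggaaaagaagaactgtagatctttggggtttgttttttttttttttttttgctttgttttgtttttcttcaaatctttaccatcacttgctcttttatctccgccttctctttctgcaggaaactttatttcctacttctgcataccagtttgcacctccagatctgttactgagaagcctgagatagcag
Treml4: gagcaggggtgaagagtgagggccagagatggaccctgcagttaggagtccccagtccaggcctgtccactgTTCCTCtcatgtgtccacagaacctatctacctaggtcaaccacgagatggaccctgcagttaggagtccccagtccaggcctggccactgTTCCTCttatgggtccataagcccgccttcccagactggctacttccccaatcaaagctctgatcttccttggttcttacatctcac
The Plac8 and Treml4 windows each held 2 matches and the Ccr2 window none. Of the 8 members with a window, 3 had this core (Plac8, Treml4 and F13a1), and 23.3% of all 32851 windows of that length in the table had it. The C/EBP letters TTGCNNAA occurred for 1 member, at the second, inner start of Plac8, against 9.56% of all windows. The E-box CACGTG, which lies within the element bound by the lysosomal regulators TFEB and TFE3, occurred in none of the members' windows and in 6.02% of all windows. The NR4A1 letters AAAGGTCA occurred in none of the members' windows and in 1.34% of all. Both strands were searched, and a match of letters is no evidence of a bound site.

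S100a4 and S100a6 encode small calcium-binding proteins and lie close together on chromosome 3 (90603771 to 90606045 and 90612882 to 90624181, GRCm38, both on the plus strand). S100a4 stood at 41.6, 26.1 and 25.2 CPM in wt macrophages 2, 4 and 6, and at 25.9, 17.6 and 19.0 CPM in cre macrophages 10, 8 and 9. Cre 10 lay within the wt range. The log2 estimate was -0.55 (SE 0.26, edgeR adjusted p = 0.410), and -0.30 without wt 2, its highest library. S100a6 stood at 441, 332 and 319 CPM in wt 2, 4 and 6, and at 320.5, 342 and 229.7 CPM in cre 10, 8 and 9. The groups overlapped, with 1 high wt library and 1 low cre library. The log2 change of S100a6 was -0.28 (SE 0.19, edgeR adjusted p = 0.624). Of the other 15 listed genes of the S100 family and its binding partners, 7 were tested in macrophages and none passed. S100a16 (-0.98) and S100a11 (-0.50) had the smallest p. S100a8 and S100a9, abundant in blood monocytes and neutrophils, were at 0 in all wt macrophages and at a mean of 0.0415 CPM each in cre.

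Fn1, Vcan and F13a1 encode extracellular proteins: fibronectin, the proteoglycan versican and the A subunit of clotting factor XIII, a transglutaminase that cross-links fibrin. Fn1 stood at 61.3, 68.9 and 98.2 CPM in wt macrophages 2, 4 and 6, and at 60.5, 31.1 and 60.6 CPM in cre macrophages 10, 8 and 9. Its groups did not overlap, but wt 2 lay within 1 CPM of both cre 10 and cre 9, and cre 8 was again the lowest library. The log2 change of Fn1 was -0.57 (SE 0.29, edgeR adjusted p = 0.458), and -0.31 without cre 8. Vcan stood at 9.03, 19.6 and 15.01 CPM in wt 2, 4 and 6, and at 12.6, 11.8 and 10.7 CPM in cre 10, 8 and 9. The cre values lay inside the wt range (log2 change -0.31, SE 0.32, edgeR adjusted p = 0.772). F13a1 stood at 277, 337 and 410.2 CPM in wt 2, 4 and 6, and at 289, 306 and 295 CPM in cre 10, 8 and 9. The coefficient of variation of F13a1 was 3.05% in cre and 19.5% in wt. Its groups overlapped (log2 change -0.19, SE 0.17, edgeR adjusted p = 0.731), and the interval of the change, -0.58 to 0.20, leaves out a 2-fold difference.

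Chil3 encodes the chitinase-like lectin Ym1 of monocytes and alternatively activated macrophages. It had 51, 4 and 1 counts in wt macrophages 2, 4 and 6, and 12, 0 and 21 counts in cre macrophages 10, 8 and 9. The counts ranged as widely within each genotype as between them. The estimate was -0.53 (SE 1.28, edgeR adjusted p = 0.917), turning to 2.06 without wt 2 and 0.03 without cre 8, so no direction can be given for Chil3. The similar gene Chil4 had at most 2 counts in any macrophage library, and reads of the pair may be split or lost. Exons of S100a4, Fn1 and F13a1 overlap the annotated genes Gm42674, Apol7d and Gm30489, which had at most 3 counts in any macrophage library.

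**Figure D2:**
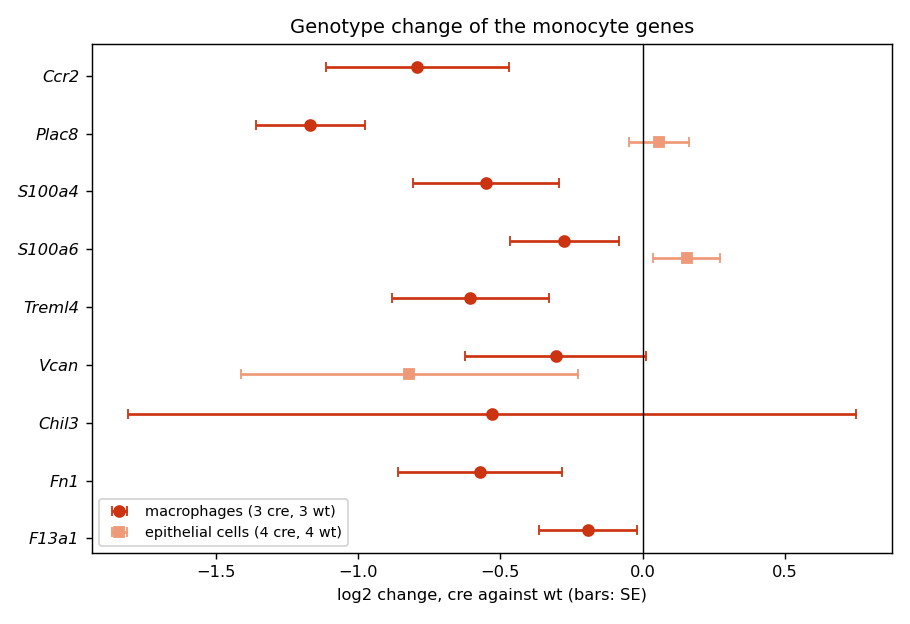
Log2 change of each monocyte gene in cre against wt for macrophages (circles, 3 against 3 libraries) and epithelial cells (squares, 4 against 4 libraries); bars are standard errors. All 9 macrophage values lie left of 0, from -1.17 for Plac8 to -0.19 for F13a1, and in epithelium Plac8 and S100a6 lie near 0; the other 6 genes without a square had too few epithelial counts to test.

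Compared per length, with the authors' FPKM, the members differed widely in level. In wt macrophages S100a6 was highest at 368 ± 59.9 FPKM, followed by Plac8 at 100.1 ± 18.5 (SD, n = 3 each). F13a1 at 70.0 ± 14.5, Ccr2 at 58.1 ± 10.96 and S100a4 at 50.7 ± 13.9 FPKM did not differ from their neighbours beyond their spread. Treml4 at 9.04 ± 2.71 and Fn1 at 7.36 ± 1.95 FPKM formed a lower pair, and Chil3 at 1.18 ± 1.71 and Vcan at 0.893 ± 0.340 FPKM the lowest. S100a6 ranked first in each of the 6 macrophage libraries. In cre macrophages F13a1 at 61.1 ± 0.915 FPKM stood above Plac8 at 44.4 ± 7.40, S100a4 at 34.6 ± 7.78 and Ccr2 at 33.6 ± 14.6 FPKM (SD, n = 3 each). F13a1 was above Plac8 in all 3 cre libraries and in 1 of the 3 wt libraries, wt 6 (84.5 against 78.7 FPKM).

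The epithelial libraries split the members into genes that are near 0 there and genes that are not. Ccr2 had 2 to 14 counts per epithelial library, Treml4 0 to 4, Fn1 0 to 8, F13a1 0 to 7 and Chil3 0 to 6. S100a4 had no count in the 4 wt epithelial libraries and at most 1 in each cre one, against 103 to 350 in macrophages. Plac8 and S100a6 were abundant in both cell types. Plac8 stood at a median of 139 CPM over the 8 epithelial libraries, from 126 to 162, and S100a6 at a median of 426 CPM, from 360.2 to 523. In the comparison of cell types over 14 libraries, 7 of the 9 were higher in macrophages by at least 2-fold, where 29.7% of 16375 genes passed in that direction. F13a1 (log2 difference 10.42, SE 0.27), Ccr2 (8.77, SE 0.26) and Fn1 (8.03, SE 0.34) had large differences, and Vcan (3.35, SE 0.37) a smaller one, each with an edgeR adjusted p of 3.92e-07 or less. The differences of Plac8 (-0.34, SE 0.11) and S100a6 (-0.40, SE 0.12) were below 2-fold, with epithelium the higher in the mean over genotypes. For Plac8 the order differed by genotype: wt macrophages averaged 172 CPM against 141 CPM in wt epithelium, and cre macrophages 75.6 CPM against 148 CPM in cre epithelium. Chil3 (3.61, SE 0.96) lost its call without wt macrophage 2.

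In epithelium no member passed the genotype test. Only 3 of the 9, Plac8, S100a6 and Vcan, had enough counts to be tested there, and none passed, whereas 9.17% of 13553 epithelial genes did (edgeR; no member had an unadjusted p under 0.05, and DESeq2 called none). Plac8 stood at 126, 141, 162 and 134 CPM in wt epithelium 2, 4, 6 and 7, and at 136, 161, 155 and 137 CPM in cre epithelium 10, 5, 8 and 9. The values were intermixed, with a log2 change of 0.06 (SE 0.11, edgeR adjusted p = 0.771) and an interval of -0.17 to 0.28. S100a6 stood at 376, 394, 512 and 360.2 CPM in wt and 414, 468, 439 and 523 CPM in cre, again with overlap. The log2 estimate was 0.15 (SE 0.12, edgeR adjusted p = 0.425). Vcan had 25 and 28 counts in wt epithelium 2 and 4 and 3 each in wt 6 and 7, against 7 to 12 in cre. In wt the split followed sex, with wt 2 and 4 female and wt 6 and 7 male. In cre the female library, cre 5, stood at 1.04 CPM, within the 0.614 to 1.29 CPM of the males. The log2 estimate of Vcan was -0.82 (SE 0.59, edgeR adjusted p = 0.390).

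The genotype change of Plac8 differed between the cell types. The change in macrophages minus that in epithelium was -1.25 on the log2 scale (SE 0.21, edgeR adjusted p = 0.0127), in a fit where 0.702% of genes passed and 0.232% passed as more negative in macrophages. Plac8 was the only member to pass this test. For S100a6 the difference was -0.46 (SE 0.24, edgeR adjusted p = 0.371) and for Vcan 0.50 (SE 0.74, adjusted p = 0.804). The Plac8 difference kept its call without each of the 14 libraries in turn, and lost it with the title number as a replicate block (-1.18, edgeR adjusted p = 0.238). The fits in males alone and with the ribosomal RNA share, where Plac8 lost its macrophage call, were not run for this difference.

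Ccr2, which did not pass the filter in epithelium, stood at 0.984 to 1.57 CPM in wt and 0.235 to 0.877 CPM in cre epithelium, without overlap. Over all genes tested there, 6.31% were separated in that direction. The summed macrophage lineage markers in the same libraries were 65.7 to 135 CPM in wt and 38.4 to 73.3 CPM in cre, and their part in the Ccr2 counts was not tested.

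Other genes of classical, Ly6C-high monocytes had changes of both signs. Of 24 listed genes 21 were tested and none passed. Changes were negative for 13 and positive for 8, with a median of -0.09. Cd14, the co-receptor for bacterial lipopolysaccharide, had a log2 change of -0.71 (adjusted p = 0.109), and Lyz1, a lysozyme gene similar to Lyz2, one of 0.77 (adjusted p = 0.117). Ly6c1 (0.13) and Ly6c2 (0.21), which encode the antigen that defines these monocytes, did not pass. Il1b, which encodes an inflammatory cytokine, averaged 2547 CPM in wt (SD 422) and 2224 CPM in cre (SD 327), over 3 libraries each. Of 15 genes of patrolling, Ly6C-low monocytes 14 were tested and none passed, with a median of 0.13. Klf2 (0.66) and Adgre4 (-1.08) had the smallest p there, and Nr4a1, the transcription factor these monocytes depend on, had a log2 change of 0.12.

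Genes gained as monocytes mature were divided. Of 26 tested, 2 rose and none fell, where 0.731% of all genes tested rose, and 13 changes were positive and 13 negative. Il10, an anti-inflammatory cytokine gene, rose from 55.8 CPM (SD 6.92) to 124 CPM (SD 17.1) over 3 libraries each, a log2 change of 1.16 with an SE of 0.17 (edgeR adjusted p = 0.0220). Selenop, which encodes a secreted selenium carrier, rose from 1095 to 2634 CPM, a log2 change of 1.28 with an SE of 0.22 (edgeR adjusted p = 0.0359). Cx3cr1, the chemokine receptor gene that increases along the waterfall, had a log2 change of 0.57 (adjusted p = 0.467) with cre above wt in all libraries, as for 9.71% of all genes tested. The MHC class II genes H2-Ab1 (-0.52), H2-Aa (-0.49), H2-Eb1 (-0.55) and Cd74 (-0.72) had negative changes that did not pass, each with cre below wt in all libraries, as for 10.1% of all genes tested. Timd4 (-1.36) and Lyve1 (-1.22), the latter also in the endothelial list below, did not pass either. Other genes of this list went the other way without passing, among them Cd4 (2.68), Pf4 (1.64) and Folr2 (0.98). Each of these had cre above wt in all libraries, as for 9.71% of all genes tested.

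Among 4 chemokine genes whose products bind CCR2, Ccl8 rose from 41.3 to 126 CPM (log2 change 1.62, SE 0.29, edgeR adjusted p = 0.0449). Ccl7 (0.67), Ccl2 (0.37) and Ccl12 (-0.61) did not pass. In the TREM family, Trem2, a lipid-sensing receptor gene, rose by 1.85 (SE 0.22, edgeR adjusted p = 0.00822) while its relatives Trem1 (-0.64) and Treml2 (1.11) did not pass. The adaptor gene Tyrobp (0.25, edgeR adjusted p = 0.635) did not pass either. As for Plac8, the calls of Il10, Selenop, Ccl8, Trem2, Cd68, Itgae and C1ra, of which Cd68, Itgae and C1ra are described further on, were lost in males alone, and in the fits that held sex or the ribosomal RNA share. All 7 were also lost without cre 10 or without wt 4, and Trem2 alone kept its call without wt 2.

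**Figure D3:**
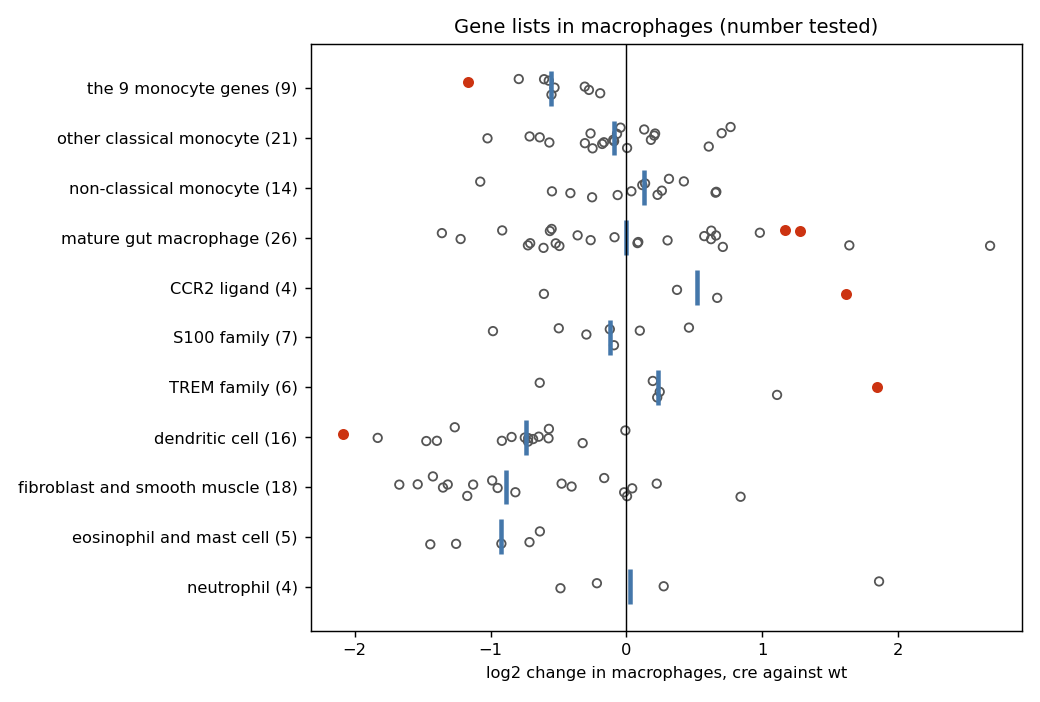
Log2 change in macrophages, cre against wt, of the 9 monocyte genes and of 10 gene lists, with the number of genes tested in brackets. Filled points passed the test, open points did not, and vertical bars are medians. The dendritic cell, fibroblast, and eosinophil and mast cell lists lie further left (medians -0.74, -0.88 and -0.92) than the other classical monocyte genes (-0.09). The T, NK and innate lymphoid list (median -1.40) is not drawn.

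Several members are also transcribed by other cells, and marker genes of some of these moved in the same direction. The gate left out CD103+, CD24+ and SiglecF+ cells and required CD64, which should remove most dendritic cells and eosinophils; Itgae encodes CD103 and Siglecf encodes SiglecF. Dendritic cells are known to transcribe Ccr2, Plac8, S100a4 and Treml4. All 16 dendritic cell markers tested had a negative log2 change (median -0.74), 1 fell (Itgae, -2.09, SE 0.28, edgeR adjusted p = 0.0165), where 0.213% of all genes tested fell, and Dpp4 had a change of -1.39. Their summed level was 2851 to 4285 CPM in wt and 2029 to 2231 CPM in cre macrophages, without overlap, and none was at 0. Fibroblasts are known to transcribe Fn1, Vcan, S100a4 and S100a6. Of 18 fibroblast and smooth muscle markers tested 14 had a negative change (median -0.88) and none passed, with Dpt (-1.17) and Pdpn (-0.95) having the smallest p. Their summed level was 4464 to 7797 CPM in wt and 1753 to 4192 CPM in cre, and lowest in cre 8. That library was also lowest in Ccr2, Plac8, S100a4, Treml4, Chil3 and Fn1, but not in S100a6, Vcan or F13a1. Of the 5 eosinophil and mast cell genes tested all changes were negative and none passed, with Alox15 (-1.25) and Siglecf (-1.44) first by p. Their summed level was 81.8 to 91.3 CPM in wt and 30.2 to 61.1 CPM in cre, and Ms4a2 was at 0. The part of these cells in the changes of the members was not tested.

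The summed markers of further cell types overlapped between the genotypes. The 4 neutrophil genes tested had a median of 0.03 and summed levels of 63.6 to 123 CPM in wt and 83.7 to 103 CPM in cre, with Cxcr2, Ngp and Camp at 0; Mmp8 (1.86) and Mmp9 (-0.49) had the smallest p and did not pass. Of 8 tested T, NK and innate lymphoid genes 7 had a negative change and none passed, with a median of -1.40, the lowest of the 20 lists. Cd8a (-4.93) and Nkg7 (-1.60) led that list at low levels. Cd8a averaged 2.07 CPM in wt and 0.057 CPM in cre, and Nkg7 5.70 and 1.86 CPM. In these libraries 3 counts equal 0.356 (wt 2) to 0.513 CPM (cre 8). The summed levels of the list overlapped at 102 to 125 CPM in wt and 83.5 to 148 CPM in cre. Most of that sum was Il7r, the 1 tested gene with a positive change (0.30). Il7r averaged 81.4 CPM in wt and 99.4 CPM in cre, so the overlap of the sums says little about the other genes. The 10 B and plasma cell genes tested (median -0.26; Ms4a1 -1.66, Cd79a -0.99) summed to 1084 to 3132 CPM in wt and 1495 to 2133 CPM in cre. The 5 plasmacytoid dendritic cell genes tested (median -0.11; Tcf4 0.57, Ccr9 -1.37) summed to 105 to 130 CPM in wt and 120 to 142 CPM in cre. The 11 endothelial markers tested (median 0.50; Lyve1 -1.22, Cdh5 1.55) summed to 395 to 629 CPM in wt and 168 to 1168 CPM in cre, with cre 8 the lowest. The 11 epithelial markers tested (median -0.41; Muc2 1.04, Epcam -0.91) summed to 70.4 to 489 CPM in wt and 111 to 275 CPM in cre. None of these genes passed. Of 10 macrophage lineage genes Cd68 rose (1.31, SE 0.19, edgeR adjusted p = 0.0220), Mertk (0.84) did not pass, and the median was 0.42. Of 14 dissociation-related early genes none passed (median 0.10; Ier3 0.75, Fos 0.48).

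Over the 6 macrophage libraries, the genes whose pattern was most like that of Plac8 were C1ra, a complement protease gene, Dpt and Gstm2. Likeness was the root mean square difference of log2 CPM after centring each gene on its own mean, among 8894 tested genes that averaged 5 CPM or more. Genes on chromosomes X and Y, antibody and T cell receptor segments and genes with provisional names had been left out. The difference was 0.0961, 0.0999 and 0.122 log2 units for C1ra, Dpt and Gstm2. C1ra fell as well (log2 change -1.11, SE 0.21, edgeR adjusted p = 0.0468). Likeness was taken over libraries of both genotypes, so a similar genotype change follows from the choice and is no separate result. Dpt is in the fibroblast list, where its change of -1.17 missed the threshold (edgeR adjusted p = 0.0736). The nearest to Ccr2 were Sema4a, Cyld and Ppm1f, at 0.119, 0.121 and 0.151 log2 units, and none of them passed. Those nearest to F13a1, Zfp869, Pip4k2a and Ankrd49, lay at 0.0527, 0.0587 and 0.0643 log2 units and had changes of -0.13, -0.24 and -0.22 that did not pass.

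**Figure D4:**
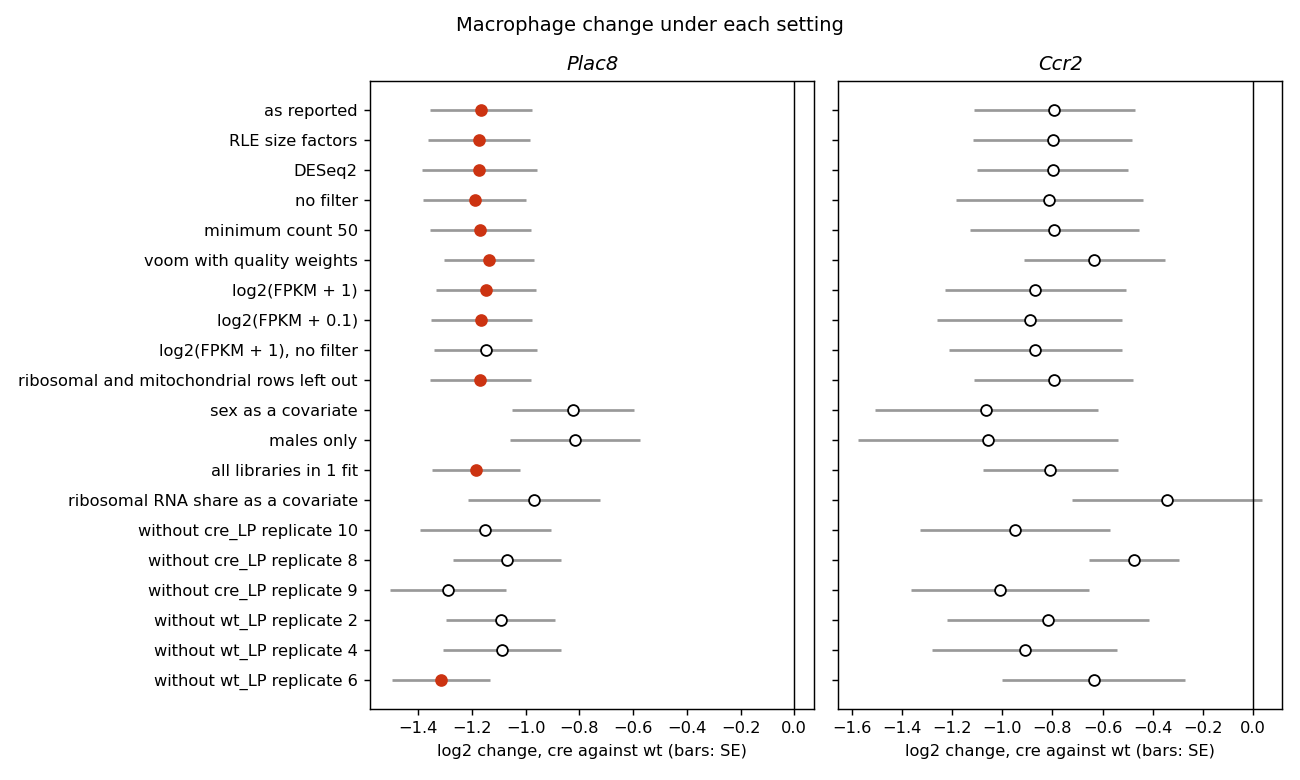
Log2 change of Plac8 and Ccr2 in macrophages, cre against wt, under each processing setting and without each library; bars are standard errors and filled points have an adjusted p under 0.05. Plac8 lies between -1.31 and -0.82 and is filled in some settings, Ccr2 lies between -1.06 and -0.34 and is filled in none.

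Direction was steadier than significance. For Plac8, Ccr2, Treml4, S100a4, S100a6, Fn1, Vcan and F13a1 the macrophage change was negative under each alternative that gave a value and without each of the 6 libraries, and for Chil3 it was not.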

How the data were processed

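RNA of sorted cells was made into full-length cDNA with Smart-seq2, which keeps no strand, and Nextera XT libraries were sequenced as 50 bp single reads, per the labels' protocols. Tools in the submitters' processing notes are Picard 2.19.2, STAR 2.5.2b and DESeq2 1.24.0, with the build GRCm38. Not given in the sources used here are the read counter, the annotation release and whether strand was used. The authors deposited raw counts per gene, and a table of FPKM in which each value equals the count divided by 1 value per gene and 1 per library (per the values; largest relative deviation 6.66e-16 over 13471 genes).

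From the counts, edgeR 4.0.16 (R 4.3.3) gave TMM factors, kept genes by filterByExpr (minimum count 10) and ran its robust quasi-likelihood test, with Benjamini-Hochberg adjustment over all genes tested, with a threshold of 0.05. Genotype was fitted within each cell type. The difference of genotype effects and the cell type difference (also requiring 2-fold) used all 14 libraries in 4 groups. Each SE was computed as the size of the log2 change over the root of its F value, and 95% intervals used the t quantile at edgeR's total degrees of freedom. CPM were scaled over all 14 libraries. The fits were tested on simulated data. Nothing states that the libraries of a group came from separate animals beyond the numbers in their titles, and the series text counts 3 wt mice where the epithelial titles carry 4 numbers; p-values measure the spread between these libraries. No pair of libraries of a group were copies (smallest chi-square per degree of freedom 4.56).

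The members and the 20 gene lists were chosen with earlier results of these data known. Of the listed symbols, Ccl13, Treml6 and Trem5 did not match. Named genes were the 9 members; of each list, the genes that passed (at most 4) and, where none or 1 passed, the 2 with the smallest p; and the 3 genes most like Ccr2, Plac8 and F13a1. Others named to describe a list (Ly6c1, Ly6c2, Il1b, Nr4a1, Cx3cr1, MHC class II genes, Timd4, Lyve1, Cd4, Pf4, Folr2, Il7r, S100a8, S100a9, Tyrobp, Ccl12, Ccl2, Treml2, Siglecf, Pdpn) were added after their values were seen. Promoter windows came from RefSeq (GRCm38.p6) and gene overlaps from GENCODE M21, whose coordinates matched those in the table for all 9 members. Alternatives were DESeq2 1.42.0, RLE size factors, an unfiltered table, a minimum count of 50, limma 3.58.1 (voom with quality weights; log2(FPKM + 1) at a mean FPKM of 1, with a pseudocount of 0.1, or unfiltered), ribosomal and mitochondrial rows left out, 1 fit of all libraries, males alone, sex or ribosomal RNA share in the model, a replicate block, and each library left out.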

Additional observations from a re-analysis of the deposited data

Results flagged for a closer look

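The genotype change of Plac8 differed between macrophages and epithelium by a test of the difference itself, at -1.25 on the log2 scale. It was negative in macrophages and near 0 in epithelium, and the difference did not pass with the title number as a replicate block (edgeR adjusted p = 0.238). The difference was not fitted in males alone or with the ribosomal RNA share in the model.

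In the 2 epithelial groups of 4 libraries, 17 sets of member values were checked for a library far from the others, and 3 had one. The cut-off gives about 1 in 20 by chance for normally distributed values. That rate does not hold for sets of few counts, so the 3 cannot be set against it. All 3 rest on few counts. Chil3 stood at 0.643 CPM (6 counts) in wt epithelium 7 and at 0 in the other three wt libraries. Fn1 stood at 0.898 CPM (8 counts) in wt epithelium 2. S100a4 was at 0 in cre epithelium 8, where the other three cre libraries had 1 count each.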

How the results depend on the processing

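The number of members called in macrophages was 1 as reported and 0 with log2(FPKM + 1) unfiltered, sex as a covariate, males alone or the ribosomal RNA share as a covariate, and 0 to 1 without single libraries. In males alone, wt has a single library, which is assumed to vary like the cre ones. Over all genes the macrophage count was 133, against 517 with DESeq2, 299 without a filter, 238 with voom, 47 with unfiltered FPKM, 2 with sex, 32 in males, 374 with all libraries in 1 fit, 18 with the ribosomal share, and 29 to 87 without single libraries. In epithelium it was 1243, against 1967 with DESeq2, 2382 with voom, 0 with unfiltered FPKM (limma; 3860 at an unadjusted p under 0.05), 5 in males, 19 in 1 fit, 0 with the ribosomal share (edgeR; 1512 at an unadjusted p under 0.05), and 178 to 1947 without single libraries. For the difference of effects it was 115, against 535 with DESeq2, 195 without a filter, 297 and 183 with filtered and unfiltered FPKM, and 54 to 229 without single libraries. Between cell types it was 8543, against 4994 and 5536 with filtered and unfiltered FPKM. The cause was not tested. Of the 8 genes outside the members named as risen or fallen in macrophages, a check added after seeing the data, 0 kept the call with sex, males alone or the ribosomal share, 2 with unfiltered FPKM, and 0 to 3 without single libraries; all 8 kept their sign throughout.

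With the title number as a replicate block, 8 genes and 0 members passed for the difference of effects (edgeR; 1696 genes at an unadjusted p under 0.05), and Plac8 stood at -1.18 (adjusted p = 0.238). No label says that a number marks 1 animal, and macrophage and epithelial libraries of 1 number deviated together weakly (correlation across genes -0.03 to 0.09); 3 of 6 correlated best with their own number. Chil3 in macrophages turned to 1.09 with voom, 3.38 with sex, 3.37 in males and 0.85 with the ribosomal share, and ranged from -1.19 to 2.06 without single libraries. Plac8 in epithelium turned to -0.063 in males. The Vcan difference of effects turned to -0.078 with unfiltered FPKM and ranged from -0.0062 to 0.85 without single libraries. With 1 to 51 counts in the libraries that had any, depth limits Chil3 in macrophages, and all members but Plac8 and S100a6 in epithelium.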

Other observations

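Genes that work with the products of the members were measured too. Of 10 chitinase-family and alternative activation genes 3 were tested in macrophages, all with negative log2 changes that did not pass: Ear2 (-0.97), Clec10a (-0.77) and Retnla (-0.75). Of 20 receptors, binders and proteases of fibronectin and versican 17 were tested and 1 fell, where 0.213% of all genes tested fell. This was the matrix gene Fbln1, which went from 1104 to 290.4 CPM (log2 change -1.91, SE 0.33, edgeR adjusted p = 0.0383), a call lost with sex or the ribosomal RNA share in the model and, among the fits without 1 library, kept only without wt 6. Sdc4, a syndecan that binds fibronectin, missed the threshold at a log2 change of 0.47. Of 15 clotting factors and transglutaminases 13 were tested and none passed. F7, which starts the clotting cascade together with tissue factor, had a log2 change of 1.49 (adjusted p = 0.147), and Tgm2, a transglutaminase gene like F13a1, averaged 632 CPM in wt (SD 37.7) and 437 CPM in cre (SD 98.4) over 3 libraries each, with a log2 change of -0.52 (edgeR adjusted p = 0.260).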
